A study of Mus musculus with 12 samples.

Results

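Collagens are the main fibrous proteins of the extracellular matrix, and fibrosis of the liver is defined by their excess. The collagen genes of mouse liver were examined by chain type in RNA-sequencing data from 12 livers. Members were chosen by name alone, as genes whose symbol consists of Col, a type number, the letter a and a chain number. The rule found 44 genes among the 54532 genes of the table. They comprised 11 fibrillar genes (types 1, 2, 3, 5, 11, 24 and 27), 6 basement membrane genes (type 4), 6 genes of type 6, 2 of type 8, 2 multiplexins (types 15 and 18), 9 FACIT genes (types 9, 12, 14, 16, 19, 20 and 22) and 8 others (types 7, 10, 13, 17, 23, 25, 26 and 28). FACIT stands for fibril-associated collagens with interrupted triple helices.

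All mice were male C57BL/6J animals that began their diets at 5 weeks of age and were kept on them for 26 weeks, with 3 mice in each of 4 groups. ND-fed mice received a normal diet, control mice a high-fat diet without supplement, HYA-treated mice the high-fat diet with 1% HYA, and LA-treated mice the high-fat diet with 1% LA. LA is linoleic acid, and HYA (10-hydroxy-cis-12-octadecenoic acid) is a product that gut lactic acid bacteria make from it, with a hydroxyl group where linoleic acid has a double bond. The labels name no allele or transgene, and each library is 1 liver, so that the spread within a group is that between mice.

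A collagen molecule is a triple helix of chains in which glycine returns after every 2 further residues. Fibrillar collagens pack side by side into the tensile fibers that accumulate in a scarred liver, type 4 collagens form the sheet-like network of basement membranes, and type 6 collagens form beaded microfilaments between the other components. FACIT collagens coat the surface of fibrils, and multiplexins are basement membrane proteoglycans whose ends can be cleaved off as fragments such as endostatin. In the liver, hepatic stellate cells, portal fibroblasts and the myofibroblasts that arise from them are known as the main makers of fibrillar collagen, whereas type 18 collagen is also made by hepatocytes.

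The repeat of glycine and 2 further residues was visible in the gene structures, a property that the naming rule did not use. A coded triplet takes 9 bases, and in the longest coding transcripts of the GENCODE M21 annotation 526 of 627 inner coding exons of fibrillar genes (83.9%) had a length that was a multiple of 9. Of the same exons, 48.6% were exactly 54 bases long, a length that codes for 6 triplets. Over all 44 collagen genes the shares were 63.9% and 24.5%, and over the inner exons of 21857 other coding genes they were 13.7% and 0.444%. Type 8 genes had no inner coding exon to count. Col1a2, with 52 exons, and Col3a1, with 51, thus consist largely of short exons of one kind.

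Several collagen genes are neighbors, and 15 of the 44 lie in 8 pairs within 100 kb of each other. The chains of basement membrane collagen are arranged head to head. The models of Col4a1 (chromosome 8, 11198423 to 11312826, minus strand, GRCm38) and Col4a2 (chromosome 8, 11312805 to 11449287, plus strand) share 22 bases, whereas those of Col4a4 (chromosome 1, ending at 82586849) and Col4a3 (chromosome 1, starting at 82586921) are 71 bases apart. Both stretches are shown because the genes on either side of them are transcribed away from each other, and one pair was abundant in these livers while the other was barely detected. They are given from the plus strand of RefSeq's GRCm38.p6 sequence, in lower case with nothing marked.
Col4a1 and Col4a2, chr8:11312805-11312826, shared by both gene models: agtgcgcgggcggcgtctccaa
Col4a4 and Col4a3, chr1:82586850-82586920, between the genes: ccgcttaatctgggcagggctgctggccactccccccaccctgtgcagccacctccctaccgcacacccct
Col4a6 and Col4a5 on chromosome X are also head to head, with 1308 bases between them. Col3a1 and Col5a2, both fibrillar, lie tail to tail on chromosome 1 with 24614 bases between their ends, and Col6a2 and Col6a1 lie in the same direction on chromosome 10 with 85161 bases between them.

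Promoter windows of 250 bases before and 50 after the annotated start were matched for 35 of the 44 genes, which gave 38 windows. The windows before Col3a1 and Col5a3 are shown because these fibrillar genes moved in opposite directions with diet and neither window overlaps an exon of its gene. Each is written from 5′ to 3′ on the gene's own strand and ends at the base before the start, and capitals mark TATAAA in the former and CCAAT in the latter.
Col3a1, chr1:45311288-45311537, plus strand: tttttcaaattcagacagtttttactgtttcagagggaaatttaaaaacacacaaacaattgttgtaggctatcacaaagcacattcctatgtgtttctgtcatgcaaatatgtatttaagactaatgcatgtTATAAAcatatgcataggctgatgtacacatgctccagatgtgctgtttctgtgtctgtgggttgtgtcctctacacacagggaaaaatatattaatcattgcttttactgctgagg
Col5a3, chr9:20815068-20815317, minus strand: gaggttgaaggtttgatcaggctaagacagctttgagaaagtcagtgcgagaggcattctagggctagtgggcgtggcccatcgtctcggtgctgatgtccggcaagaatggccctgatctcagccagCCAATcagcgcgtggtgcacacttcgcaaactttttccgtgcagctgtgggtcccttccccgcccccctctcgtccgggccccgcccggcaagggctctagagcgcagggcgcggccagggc
Read on both strands, the letters CCAAT occurred in 34.2% of collagen windows and in 33.8% of 32851 windows of all genes. TATAAA occurred in 13.2% and 12.4%, and CAGAC in 44.7% and 42.2%. GGGCGG was present in 57.9% of collagen windows against 32.7% of all windows. A match describes letters in a window and shows no binding.

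Levels were deposited as FPKM, fragments scaled by gene length and a library total, and fragments on genes numbered 17169064 to 25220880 per liver. The library total recovered from the values was not the sum of fragments on genes. In every ND-fed mouse it was below that sum (15884206 to 17972216 against 17169064 to 19595277). In every control mouse it was above it (20719051 to 21503657 against 19558364 to 20669092). A gene was taken as detected in a liver when it had more than 3 fragments. Of the 44 collagen genes, 26 were detected in all 12 livers, 10 in some and 8 in none. Col18a1 stood far above the rest in every group, with means of 138 to 174 FPKM. The order below it depended on the diet. In ND-fed mice Col5a3 followed with 16.4 FPKM, then Col14a1 with 8.97 FPKM and Col4a1 with 6.83 FPKM, and Col3a1 was at 2.97 FPKM. In control mice Col14a1 followed with 22 FPKM, then Col3a1 with 18 FPKM and Col4a1 with 16.6 FPKM, while Col4a2, Col1a1 and Col5a3 lay at 10.8, 10.7 and 10.1 FPKM. Levels are comparable between genes only as far as the deposited gene lengths are, which count every annotated exon and exceed the longest coding transcript 2.32-fold for Col1a2, 1.76-fold for Col3a1 and 1.11-fold for Col1a1.

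**Figure D1:**
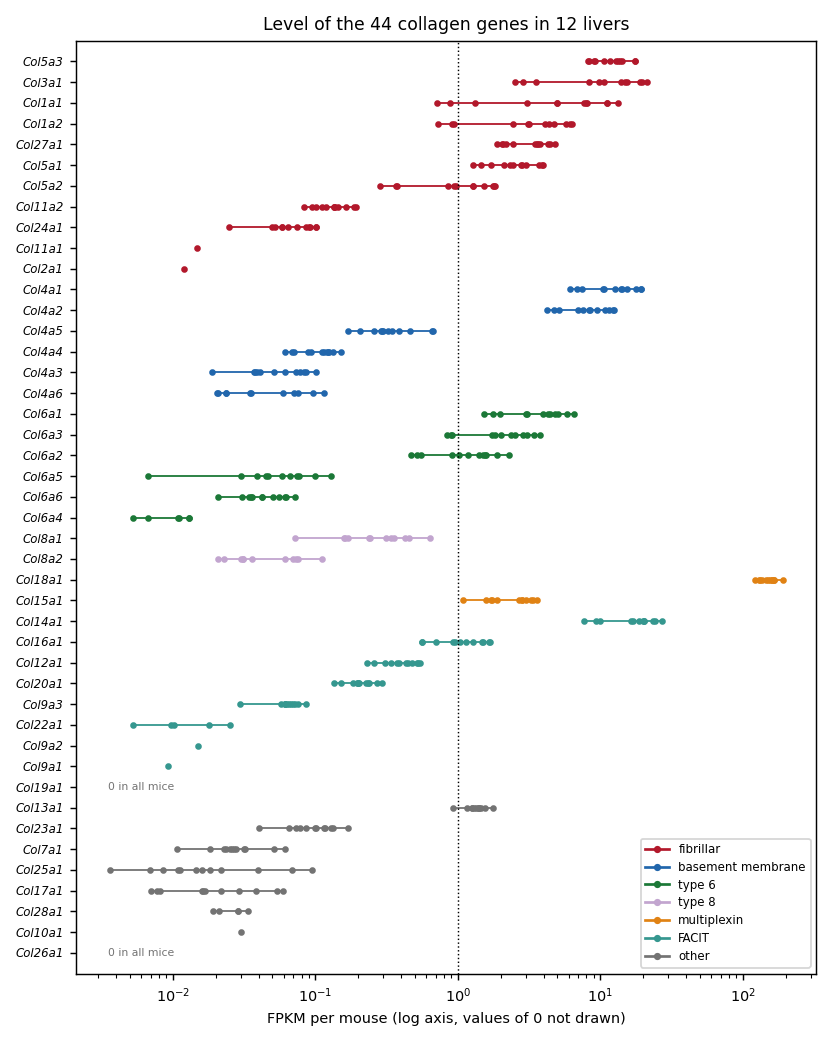
FPKM (log axis) of each of the 44 collagen genes in each of the 12 livers, with 1 point per mouse, a line over the range and colors for the chain types; values of 0 are not drawn and the dotted line marks 1 FPKM. Col18a1 lies to the right of all other genes, and Col19a1 and Col26a1 were at 0 in every liver.

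Genes best known from cartilage and bone were at or near 0. Col2a1, the fibrillar collagen of cartilage, Col9a1 and Col9a2, which coat its fibrils, and Col10a1, the collagen of hypertrophic cartilage, were each above 0 in 1 liver of 12 and never above the limit of 3 fragments. Col11a1, the partner of type 2 collagen, was above 0 in 1 liver, at 0.0147 FPKM. Exceptions were Col9a3, at 0.0295 to 0.0859 FPKM in all livers, and Col11a2, another gene of type 11, at 0.0833 to 0.192 FPKM in all livers. Of 5 cartilage and bone markers, Acan, Matn1 and Ibsp were at 0 in every liver, Bglap had group means of at most 0.0607 FPKM, and Sox9, which is also a bile duct marker, had group means of 1.22 to 1.99 FPKM. The list summed to 0.832 to 2.55 FPKM per liver.

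The other low genes can be placed by range. Among fibrillar genes, Col24a1 reached at most 0.102 FPKM. Among the type 4 chains of specialized basement membranes, such as that of the kidney glomerulus, Col4a5 reached 0.671 FPKM, Col4a4 0.151 FPKM, Col4a6 0.115 FPKM and Col4a3 0.101 FPKM. Col6a5 reached 0.128 FPKM, Col6a6 0.0717 FPKM and Col6a4 0.0131 FPKM. Of the type 8 genes, known from blood vessel walls, Col8a1 reached 0.635 FPKM and Col8a2 0.112 FPKM. The remaining FACIT genes Col12a1, Col20a1 and Col22a1 reached 0.542, 0.294 and 0.0253 FPKM. In the group of others, which includes the membrane-spanning types 17, 23 and 25 and the anchoring fibril collagen of type 7, the highest values were 0.171 FPKM for Col23a1, 0.0945 FPKM for Col25a1, 0.0612 FPKM for Col7a1, 0.0592 FPKM for Col17a1 and 0.0337 FPKM for Col28a1. Col19a1 and Col26a1 had no fragment in any liver, which allows a level of up to 3 fragments per library.

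Testing by limma on log2(FPKM + 1) was limited to genes whose average over the 12 mice reached 1 FPKM, which left 17 collagen genes among 11083 genes. These were 7 fibrillar genes, 2 of type 4, 3 of type 6, both multiplexins, 2 FACIT genes and Col13a1. Of the 17, 6 (Col1a1, Col1a2, Col5a2, Col6a3, Col6a2 and Col16a1) had a mean under 1 FPKM in ND-fed mice and passed the filter through the high-fat groups, so that the counts below describe the tested genes and not all members. A fold change on this scale understates that of a low gene.

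The first comparison asked how the high-fat diet altered the collagen genes. Control mice differed from ND-fed mice in most of the genes tested, with 13 of 17 higher and 2 lower (limma, Benjamini-Hochberg adjusted p under 0.05). Over all tested genes 16.2% were higher and 19.1% lower, and 45.1% had an unadjusted p under 0.05. Where groups are said below not to overlap, the share of all genes that did likewise was not counted. The median log2 fold change was 0.95 for the collagen genes and -0.04 for all genes tested. With an added limit of 1 on the log2 scale, 8 collagen genes were higher, against 2.25% of all genes. When columns were rescaled to a common FPKM total, the share of higher calls among all calls moved from 45.9% to 83.8%, and the median of all genes from -0.04 to 0.15 while that of the collagen genes moved to 1.05. The collagen calls were then 13 higher and 0 lower, where 3789 of all 11083 genes were higher and 735 lower.

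The chains of type 1 and type 3 collagen, the bulk of scar tissue, rose most among the 17 genes on the log2(FPKM + 1) scale. Col1a1, which supplies 2 of the 3 chains of type 1 collagen, was at 0.72, 0.883 and 1.33 FPKM in ND-fed mice, at 13.2, 7.72 and 11.1 FPKM in control mice, at 4.94, 3.08 and 5.01 FPKM in HYA-treated mice and at 11.2, 8.04 and 7.98 FPKM in LA-treated mice. Every control value lay above every HYA value, and every HYA value above every ND value. Control against ND gave a log2 fold change of 2.55 (SE 0.21, limma adjusted p = 1.26e-05).

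Col1a2, the third chain of the same molecule, was at 0.728, 0.917 and 0.936 FPKM in ND-fed mice, 6.35, 4.34 and 5.77 FPKM in control mice, 3.15, 2.45 and 3.09 FPKM in HYA-treated mice and 6.1, 4.07 and 4.74 FPKM in LA-treated mice. Its groups followed the same order without overlap between ND, HYA and control. The log2 fold change of control against ND was 1.79 (SE 0.14, limma adjusted p = 9.44e-06). Col3a1, whose product forms a molecule of 3 identical chains in thin reticular fibers, was at 2.52, 2.86 and 3.51 FPKM in ND-fed mice, 21.2, 14 and 18.9 FPKM in control mice, 10.7, 8.31 and 9.77 FPKM in HYA-treated mice and 19.6, 14.8 and 15.5 FPKM in LA-treated mice. It rose by a log2 fold change of 2.25 in control against ND (SE 0.16, limma adjusted p = 4.32e-06), with the same separation.

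Type 5 collagen, which starts and limits the thickness of type 1 fibrils, was split. Col5a1 was at 1.29, 1.45 and 1.72 FPKM in ND-fed mice, 3.89, 2.45 and 3.72 FPKM in control mice, 2.82, 2.33 and 2.13 FPKM in HYA-treated mice and 3.95, 2.76 and 3 FPKM in LA-treated mice. Col5a2, the neighbor of Col3a1, was at 0.374, 0.282 and 0.371 FPKM in ND-fed mice, 1.79, 1.28 and 1.76 FPKM in control mice, 0.979, 0.937 and 0.856 FPKM in HYA-treated mice and 1.83, 1.29 and 1.52 FPKM in LA-treated mice. Both rose in control mice, by log2 fold changes of 0.79 and 0.95, and the ND values of both lay below all others.

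Col5a3, the third chain gene of type 5, went the other way. It was at 17.6, 17.6 and 14.1 FPKM in ND-fed mice, 8.26, 8.37 and 13.7 FPKM in control mice, 12.9, 10.6 and 9.08 FPKM in HYA-treated mice and 13.4, 11.6 and 9.17 FPKM in LA-treated mice. It was therefore the most abundant fibrillar collagen mRNA of the ND-fed liver, and the ND values lay above those of every high-fat mouse. Control against ND gave a log2 fold change of -0.68 (SE 0.19, limma adjusted p = 0.0196). The call was lost (adjusted p = 0.0851) with columns rescaled to a common total, where the log2 fold change was -0.46, and without ND mouse 1 or 2 or control mouse 1 or 2 (adjusted p 0.0589 to 0.0791). Col27a1, the other fibrillar gene tested, ranged from 4.32 to 4.85 FPKM in ND-fed mice and from 1.89 to 3.76 FPKM in the high-fat groups, and did not pass in control against ND (log2 fold change -0.48, adjusted p = 0.103).

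Both chains of the ubiquitous type 4 network rose together. Col4a1 was at 6.92, 6.09 and 7.48 FPKM in ND-fed mice, 17.8, 12.7 and 19.3 FPKM in control mice, 13.9, 10.5 and 10.6 FPKM in HYA-treated mice and 19.4, 14.2 and 15.3 FPKM in LA-treated mice. Col4a2 was at 4.71, 4.2 and 5.11 FPKM in ND-fed mice, 12.6, 8.5 and 11.4 FPKM in control mice, 8.39, 7.62 and 6.99 FPKM in HYA-treated mice and 12.2, 9.51 and 10.7 FPKM in LA-treated mice. For both genes every ND value was below every high-fat value. The log2 fold changes of control against ND were 1.15 for Col4a1 (SE 0.16, limma adjusted p = 0.000362) and 1.05 for Col4a2 (SE 0.13, limma adjusted p = 0.000179).

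All 3 common chains of type 6 collagen rose as well. Col6a1 was at 1.77, 1.52 and 1.99 FPKM in ND-fed mice, 6.5, 4.41 and 5.01 FPKM in control mice, 3.98, 3.07 and 3.01 FPKM in HYA-treated mice and 5.85, 4.3 and 4.84 FPKM in LA-treated mice. Col6a2 was at 0.554, 0.469 and 0.521 FPKM in ND-fed mice, 2.3, 1.55 and 1.58 FPKM in control mice, 1.18, 0.908 and 1.02 FPKM in HYA-treated mice and 1.88, 1.42 and 1.51 FPKM in LA-treated mice. The highest HYA value of each lay under the lowest control value. Col6a3, the long chain whose end is released as endotrophin, was at 0.837, 0.905 and 0.902 FPKM in ND-fed mice, 3.76, 2.36 and 3.04 FPKM in control mice, 2.02, 1.84 and 1.73 FPKM in HYA-treated mice and 3.42, 2.52 and 2.87 FPKM in LA-treated mice. Control against ND gave log2 fold changes of 1.18 for Col6a1 (SE 0.14, limma adjusted p = 0.000112), 1.09 for Col6a3 (SE 0.12, limma adjusted p = 7.63e-05) and 0.88 for Col6a2 (SE 0.11, limma adjusted p = 0.00017).

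The multiplexins moved in opposite directions. Col15a1, found in basement membranes of vessels and muscle, was at 1.09, 1.72 and 1.59 FPKM in ND-fed mice, 3.59, 3.36 and 2.82 FPKM in control mice, 1.89, 1.74 and 2.81 FPKM in HYA-treated mice and 3.24, 2.69 and 3.02 FPKM in LA-treated mice. Col18a1, the precursor of endostatin, was at 167, 165 and 191 FPKM in ND-fed mice, 130, 132 and 151 FPKM in control mice, 161, 156 and 145 FPKM in HYA-treated mice and 160, 138 and 123 FPKM in LA-treated mice. Its ND values lay above all others, and HYA and control values overlapped. Control against ND gave log2 fold changes of 0.79 for Col15a1 (SE 0.14, limma adjusted p = 0.00129) and -0.34 for Col18a1 (SE 0.10, limma adjusted p = 0.024). The Col18a1 call was lost with columns rescaled to a common total (log2 fold change -0.10, adjusted p = 0.424) and without ND mouse 3, control mouse 1 or control mouse 2 (adjusted p 0.0657 to 0.0869). Col18a1 also overlaps Slc19a1 on the opposite strand over 8825 bases, and whether reads were counted by strand was not given in the sources used here.

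Both FACIT genes tested rose. Col14a1, next below Col18a1 in the high-fat groups and below Col18a1 and Col5a3 in ND-fed mice, was at 9.3, 7.7 and 9.89 FPKM in ND-fed mice, 24.1, 18.6 and 23.3 FPKM in control mice, 20.2, 16.9 and 16.4 FPKM in HYA-treated mice and 27.1, 20 and 20.2 FPKM in LA-treated mice. Col16a1 was at 0.557, 0.56 and 0.701 FPKM in ND-fed mice, 1.66, 1.15 and 1.51 FPKM in control mice, 0.963, 1.04 and 0.923 FPKM in HYA-treated mice and 1.7, 1.27 and 1.48 FPKM in LA-treated mice. ND values of both were below those of every high-fat mouse. The log2 fold changes were 1.20 for Col14a1 (SE 0.14, limma adjusted p = 0.000113) and 0.60 for Col16a1 (SE 0.09, limma adjusted p = 0.00073). Col13a1, a membrane-spanning collagen, ranged from 0.927 to 1.76 FPKM over all livers with a log2 fold change of -0.02 (SE 0.10, 95% interval -0.23 to 0.20, limma adjusted p = 0.912).

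**Figure D2:**
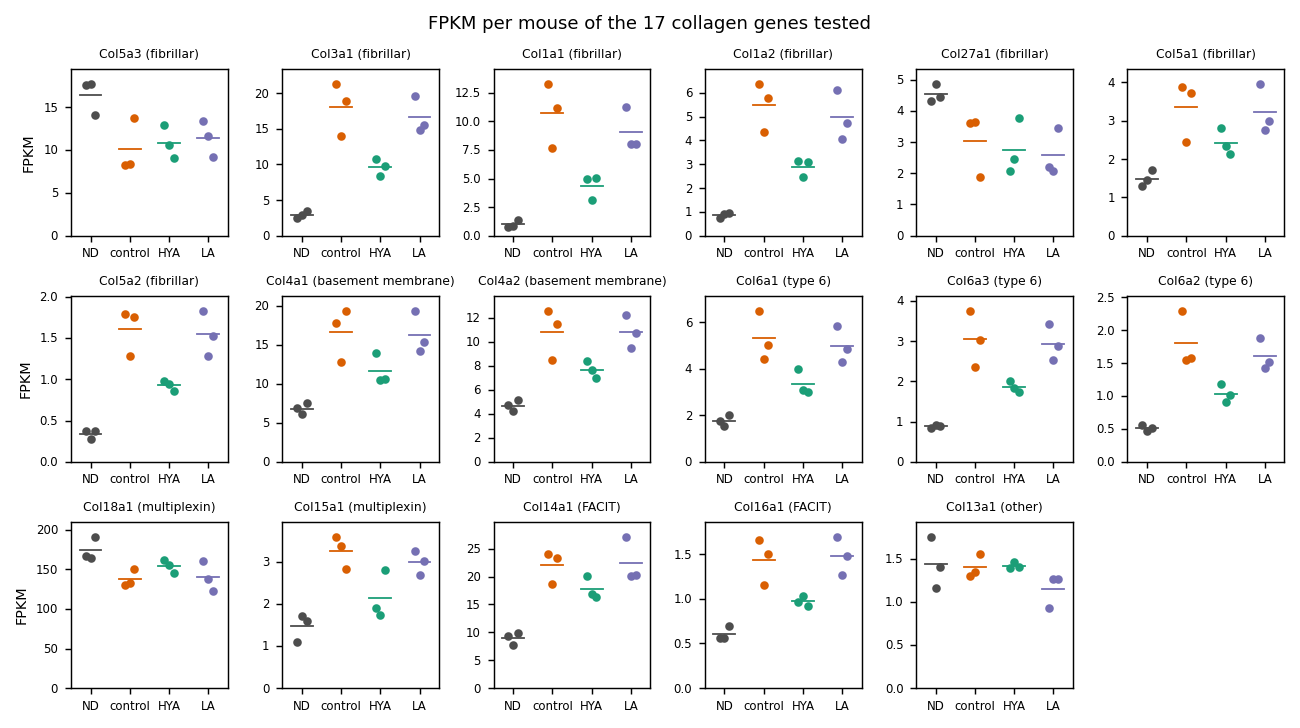
FPKM of the 17 tested collagen genes in each liver, with 1 point per mouse, a bar at the mean of the 3 mice and each vertical axis starting at 0. Col1a1, Col1a2 and Col3a1 are low in ND-fed mice, high in control and LA-treated mice and between in HYA-treated mice, whereas Col5a3 and Col18a1 are highest in ND-fed mice.

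Genes below 1 FPKM were read from the recovered fragments instead, with voom on 14353 genes that had a mean of at least 10 fragments. These included 27 collagen genes, of which 16 were higher and 2 lower in control against ND, where 17.6% and 15.7% of all genes were. The 3 higher genes that the FPKM filter had left out were Col12a1, a FACIT gene, Col8a1 and Col6a5. Col12a1 was at 0.306, 0.232 and 0.259 FPKM in ND-fed mice and at 0.476, 0.43 and 0.526 FPKM in control mice, a log2 fold change of 0.84 (voom adjusted p = 0.00136). Col8a1 was at 0.16, 0.0723 and 0.17 FPKM in ND-fed mice and 0.451, 0.359 and 0.339 FPKM in control mice, a log2 fold change of 1.54 (voom adjusted p = 0.00855). Col6a5 rested on 0 to 5 fragments per ND-fed mouse and 9 to 26 per control mouse, a log2 fold change of 2.99 (SE 0.74, voom adjusted p = 0.00806). It reached the mean of 10 fragments only through the high-fat groups, in which it was high, so its call is no independent support. On this scale, which has no added 1, the log2 fold change of Col1a1 was 3.45, that of Col1a2 2.66, that of Col3a1 2.59 and that of Col5a2 2.21, so that the Col6a5 estimate lay above all but Col1a1. Col25a1 was too low for either test, at 0.0396, 0.0681 and 0.0945 FPKM in ND-fed mice and at most 0.0219 FPKM in any high-fat mouse.

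Control against HYA was the second comparison, which asked how the supplement altered these genes under the same high-fat diet. Of the 17 genes, 4 had lower levels under HYA than in control mice and 0 had higher ones, and 12 were lower at an unadjusted p under 0.05. All 4 were fibrillar, namely Col1a1, Col3a1, Col1a2 and Col5a2. Among all tested genes 1.57% were higher and 1.23% lower, and 18.5% had an unadjusted p under 0.05. The median log2 fold change was -0.44 for the collagen genes and 0.02 for all genes. Rescaling columns to a common total turned the calls of all genes from 56.1% higher to 19.2% higher and gave 8 lower and 0 higher collagen genes, at a collagen median of -0.53 and a median of all genes of -0.08. Of all 11083 genes 426 were then lower and 101 higher.

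The change was largest in Col1a1, which fell from a mean of 10.7 ± 2.8 to 4.34 ± 1.1 FPKM (SD, n = 3). Its log2 fold change of HYA against control was -1.12 (SE 0.21, limma adjusted p = 0.0293), and it was the 1 collagen gene past a log2 change of 1, where 0.144% of all genes fell by as much. Col3a1 fell from 18 ± 3.7 to 9.6 ± 1.2 FPKM, a log2 fold change of -0.83 (SE 0.16, limma adjusted p = 0.0296). The Col1a2 value was -0.73 (SE 0.14, limma adjusted p = 0.0316) and that of Col5a2 -0.44 (SE 0.10, limma adjusted p = 0.0487). HYA and control mice did not overlap in any of the 4 genes, which this same test had picked, so the separation is no further support. The share of all genes without overlap was not counted.

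The adjusted p-values were near the threshold, and the calls depended on single mice. Without control mouse 1, control mouse 3 or any of the HYA-treated mice 0 collagen genes passed, with 10 to 13 at an unadjusted p under 0.05, whereas without control mouse 2, the control mouse with the lowest Col1a1 and Col3a1, 10 genes were lower. No gene passed when the fit held only these 2 groups or when no filter was applied, with 11 and 14 at an unadjusted p under 0.05. With voom 7 collagen genes were lower and 0 higher, where 1.84% of all genes were lower and 1.72% higher. Adjusted p-values of Col1a1 over all alternatives ranged from 0.00851 to 0.139, and its direction was the same in each.

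No gene of the other chain types passed; most had negative values, with Col18a1 and Col13a1 above 0. The type 6 genes came nearest, with log2 fold changes of -0.46 for Col6a2 (SE 0.11, limma adjusted p = 0.0542), -0.49 for Col6a3 (SE 0.12, limma adjusted p = 0.0574) and -0.53 for Col6a1 (adjusted p = 0.0683). With voom all 3 were called lower, at adjusted p-values of 0.0291, 0.032 and 0.0437. The type 4 genes had -0.44 for Col4a2 (95% interval -0.73 to -0.15, limma adjusted p = 0.104) and -0.47 for Col4a1 (95% interval -0.82 to -0.11, limma adjusted p = 0.153). Values for the FACIT genes were -0.30 for Col16a1 (SE 0.09, limma adjusted p = 0.117) and -0.29 for Col14a1 (SE 0.14, limma adjusted p = 0.309). Among multiplexins the change was -0.45 for Col15a1 (SE 0.14, limma adjusted p = 0.109) and 0.16 for Col18a1 (SE 0.10, limma adjusted p = 0.429). Col5a1 had -0.33 (adjusted p = 0.256), Col5a3 0.12 (adjusted p = 0.815), Col27a1 -0.10 (adjusted p = 0.861) and Col13a1 0.01 (adjusted p = 0.969).

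**Figure D3:**
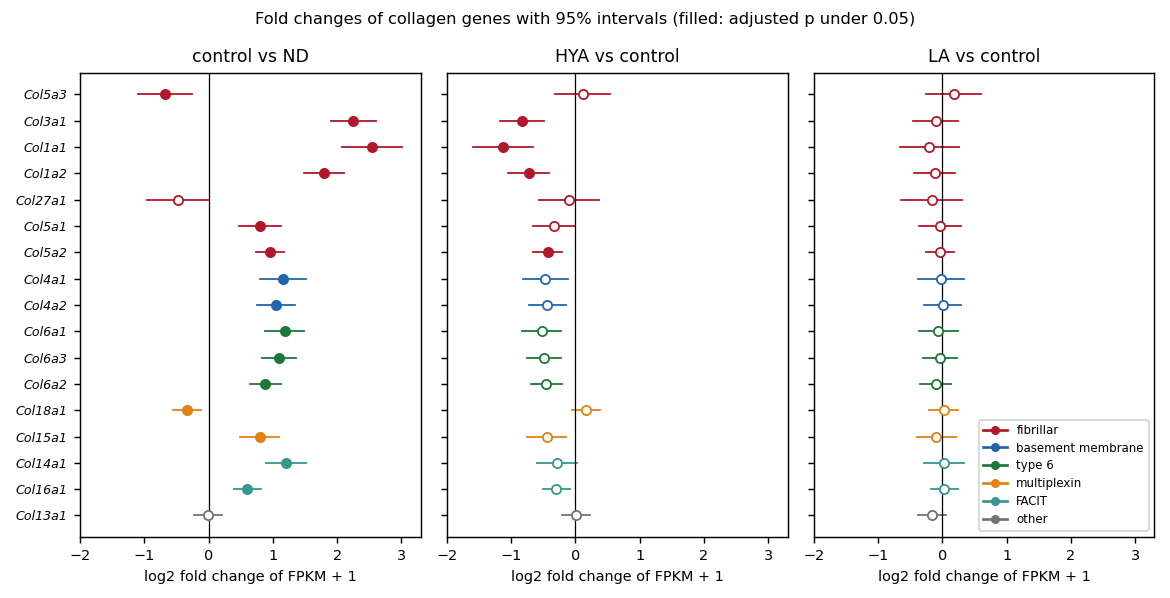
Log2 fold changes of FPKM + 1 of the 17 tested collagen genes with 95% intervals from limma, in a panel each for control mice against ND-fed mice and for the HYA and LA groups against control mice, colored by chain type and filled where the adjusted p is under 0.05. In the first comparison 13 genes lie to the right and 2 filled points to the left, in the second the 4 filled points are fibrillar genes on the left, and in the third no point is filled.

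Linoleic acid was given at the same dose and for the same time as HYA. LA-treated mice differed from control mice in 0 of 17 collagen genes by limma and in 0 of 27 by voom, with 0 and 1 at an unadjusted p under 0.05. None of the 11083 genes tested passed in this comparison, 0% in either direction, and 2.65% had an unadjusted p under 0.05. The median collagen value was -0.04. The interval of the difference was -0.67 to 0.27 for Col1a1, -0.45 to 0.25 for Col3a1 and -0.43 to 0.19 for Col1a2, so that a fall of up to those sizes could have been missed.

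Compared directly, HYA-treated mice had lower values than LA-treated mice in 14 of 17 collagen genes, but none passed (0 of 17 by limma, 11 lower at an unadjusted p under 0.05). Over all genes 0.235% were higher and 0.253% lower in HYA than in LA at the adjusted threshold, and 17.2% had an unadjusted p under 0.05. The lowest adjusted p-values were 0.0663 for Col3a1 (log2 fold change -0.73), 0.0715 for Col1a1 (log2 fold change -0.92) and 0.0726 for Col1a2 (log2 fold change -0.61). The 95% interval of the Col1a1 difference was -1.39 to -0.46. With voom 4 of 27 collagen genes were lower in HYA than in LA, namely Col1a1, Col1a2, Col3a1 and Col5a2. Of all 14353 genes in that fit 112 were lower and 112 higher. These were 1 pair of compounds, at 1 dose and 1 time.

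Against ND-fed mice, HYA-treated mice still had 10 collagen genes higher and 0 lower, where 8.72% and 7.85% of all genes were called. At an unadjusted p under 0.05, 13 collagen genes were higher and 2 lower, where 32.2% of all genes had such a p in either direction. Of the 10 called, Col1a1, Col3a1, Col1a2 and Col14a1 are given here. Their log2 fold changes included 1.42 for Col1a1, 1.42 for Col3a1, 1.06 for Col1a2 and 0.92 for Col14a1 (limma adjusted p 0.000213 to 0.00147). LA-treated mice had 13 higher and 2 lower (Col18a1 and Col27a1), where 14.4% and 16.6% of all genes were called. Both lower calls were lost, with 13 higher and 0 lower, with median-ratio scaling, with a common total, without any 1 of the ND-fed mice and without LA mouse 2, and adjusted p-values over all alternatives reached 0.504 for Col18a1 and 0.126 for Col27a1. With a common total 3602 of all 11083 genes were higher and 622 lower in LA against ND. Log2 fold changes of LA against ND were 2.35 for Col1a1, 2.15 for Col3a1 and 1.67 for Col1a2. Comparisons with ND share the same 3 ND-fed mice, and those with control the same 3 control mice.

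On the FPKM scale as deposited, the summed collagen mRNA overlapped between groups, while its makeup differed. Summed over all 44 genes it came to 230.8 ± 15.9 FPKM on the normal diet, 258 ± 25.3 FPKM for control, 237.7 ± 15.2 FPKM for HYA and 256.9 ± 35.3 FPKM for LA (SD, n = 3), and the ranges of all groups overlapped. Col18a1 supplied 75.5% ± 1.2 of the sum in ND-fed mice, 53.5% ± 4.2 in control mice, 64.9% ± 1.8 in HYA-treated mice and 54.6% ± 2.1 in LA-treated mice. Without Col18a1 the sum was 56.5 ± 1.5 FPKM on the normal diet, 120.4 ± 19.7 FPKM for control, 83.6 ± 8.6 FPKM for HYA and 116.6 ± 17.7 FPKM for LA, with every HYA value between the ND and the control values. The FPKM of all genes totaled 407652 to 429286 in ND-fed mice and 342146 to 368132 in control mice. The highest ND sum (249.1 FPKM) came with a total of 429286, and the lowest control sum (230.1 FPKM) with a total of 368132. As shares of these totals, every ND sum lay below every control and LA sum, whereas ND and HYA still overlapped. Overlap of ND with control and LA therefore holds only for FPKM as deposited.

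The fibrillar, type 4, type 6 and FACIT shares were lowest on the normal diet, with the HYA mean between those of ND and control. Fibrillar genes held 12.1% ± 1.3 of collagen FPKM on the normal diet, 20.3% ± 2.0 for control, 14.3% ± 1.1 for HYA and 19.3% ± 0.63 for LA. Type 4 genes held 5.20% on the normal diet, 10.8% for control, 8.29% for HYA and 10.8% for LA, and type 6 genes 1.39%, 3.99%, 2.67% and 3.76% in the same order of groups. FACIT genes held 4.39%, 9.36%, 8.16% and 9.60%. These shares are descriptions without a test and rest on the deposited lengths. In fragments not divided by length the fibrillar share was 14.2%, 24.4%, 17.3% and 23.1%.

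**Figure D4:**
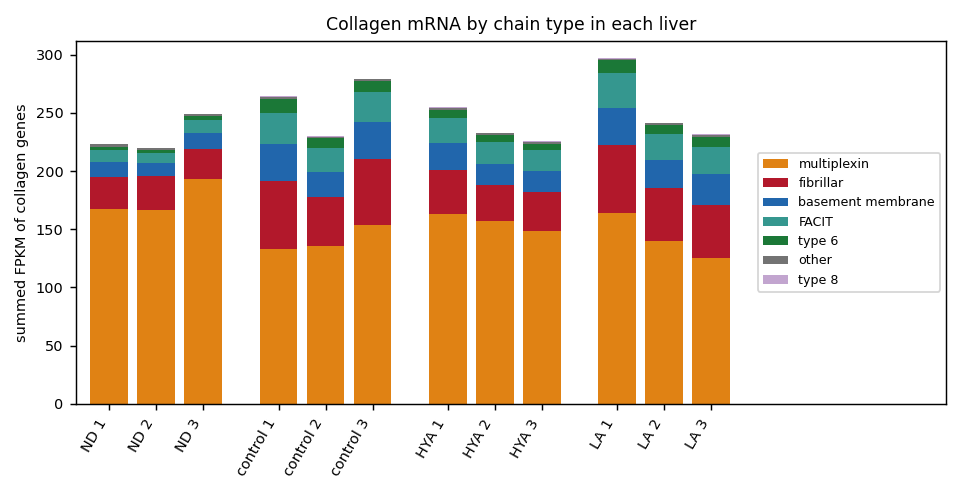
Summed FPKM of the 44 collagen genes in each liver, stacked by chain type, with 1 bar per mouse starting at 0. The multiplexin part, nearly all Col18a1, fills 75.1% to 77.4% of each ND bar and 50.5% to 58.9% of each control bar, and the fibrillar, type 4 and type 6 parts are larger in control and LA bars than in ND bars.

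Ratios between chains describe how far the changes were parallel. Col4a1 to Col4a2, the head-to-head pair, stayed between 1.38 and 1.69 in all 12 livers, with group means from 1.46 (ND) to 1.53 (control). Col6a3 to Col6a2 ranged from 1.51 to 2.02 with overlapping groups, whereas Col6a1 to Col6a2 was 3.19 to 3.83 in ND-fed mice and 2.83 to 3.18 in control mice, without overlap. Col1a1 to Col1a2, by contrast, was 0.962 to 1.42 in ND-fed mice and 1.78 to 2.08 in control mice, with 1.26 to 1.62 under HYA and 1.68 to 1.97 under LA. Per kilobase of the longest coding transcript its group means were 0.536, 0.920, 0.707 and 0.873, so that the order held while the value depended on the length used. Between different molecules, Col3a1 to Col1a1 went from 3.13 ± 0.44 in ND-fed to 1.70 ± 0.10 in control mice (SD, n = 3). Within type 5, Col5a1 to Col5a2 went from 4.40 ± 0.87 to 2.06 ± 0.14.

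Collagen chains need a set of enzymes and chaperones before they become fibers, and 32 such genes were listed, of which 18 were tested. In control against ND 9 were higher and 2 lower, where 16.2% and 19.1% of all genes were. Of the higher genes, Adamts2, P3h3, Loxl1 and Loxl2 had ND means of 0.497, 0.752, 0.544 and 0.535 FPKM. They passed the filter of 1 FPKM through the high-fat groups, so the count describes the tested genes and not the list. The median log2 fold change was 0.22 against -0.04 for all genes. The higher genes included Pcolce, which enhances removal of the end of procollagen, with 0.85 (SE 0.12, limma adjusted p = 0.000409), Colgalt1, which adds galactose to hydroxylysine, with 0.50 (SE 0.07, limma adjusted p = 0.00048), the cross-linking oxidase Loxl1 with 0.71 (SE 0.10, limma adjusted p = 0.0005), and the procollagen protease Adamts2 with 0.88 (SE 0.13, limma adjusted p = 0.000577). Serpinh1, the collagen chaperone HSP47, was the 1 gene past a log2 change of 1, at 1.26 (SE 0.20, limma adjusted p = 0.000685). Its mean was 5.44 ± 1.3 FPKM on the normal diet, 14.4 ± 3.3 FPKM for control, 9.87 ± 2.1 FPKM for HYA and 13.7 ± 1.9 FPKM for LA (SD, n = 3). The lower genes were Ppib, a prolyl isomerase of the same organelle (log2 fold change -0.41, SE 0.06, limma adjusted p = 0.000402), and Mia3, which loads procollagen for export (log2 fold change -0.32). With columns rescaled to a common total, 11 of the 18 were higher and 1 lower, where 3789 of all 11083 genes were higher and 735 lower.

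In HYA against control 0 of the 18 passed by limma and 0 by voom, with 8 at an unadjusted p under 0.05, 13 of 18 negative and a median of -0.15. The lowest p-values belonged to Colgalt1 (log2 fold change -0.26, limma adjusted p = 0.0827), Loxl1 (log2 fold change -0.32, limma adjusted p = 0.131) and Pcolce (log2 fold change -0.36, limma adjusted p = 0.143). Of 10 collagen receptors only Itgb1 and Itga1 were high enough to test by limma. Itgb1, the shared chain of collagen-binding integrins, was at 52.8 ± 0.95 FPKM in ND-fed and 53.7 ± 2.7 FPKM in control mice (log2 fold change 0.02, limma adjusted p = 0.76). Itga1 had 0.13 in control against ND (limma adjusted p = 0.18) and 0.13 in HYA against control (limma adjusted p = 0.366). These receptor calls depended on the setting. Voom tested 7 receptors and called 4 higher and 0 lower in control against ND, where 17.6% and 15.7% of all genes were. With a common total both Itgb1 and Itga1 were called higher, where 3789 of all 11083 genes were. In HYA against control voom called 0 of 7.

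Markers of the cell types that make collagen moved with part of these results. For comparison, 16.2% of all tested genes were higher and 19.1% lower in control against ND. In HYA against control the shares were 1.57% and 1.23%. The 3 of 5 myofibroblast and smooth muscle markers that were tested (Acta2, Tagln and Myl9) were all higher in control against ND, with a median log2 fold change of 0.97. Their list summed to 5.07 to 8.03 FPKM on the normal diet, 15.1 to 15.8 FPKM for control, 8.85 to 12.2 FPKM for HYA and 10.8 to 19.3 FPKM for LA. The sum thus lay between the ND and control ranges in HYA-treated mice, and 0 of the 3 passed in HYA against control (adjusted p 0.0761 to 0.402). Stellate cell markers summed to 79.4 to 110 FPKM on the normal diet, 118 to 141 FPKM for control, 119 to 135 FPKM for HYA and 130 to 159 FPKM for LA, so that HYA and control overlapped. Of the 9 tested, 3 (Colec11, Rgs5 and Pdgfrb) were higher in control against ND and 0 passed in HYA against control, at a median of -0.04.

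Portal fibroblast and mesothelium markers summed to 2.48 to 3.71 FPKM on the normal diet, 4.69 to 6.46 FPKM for control, 3.18 to 4.78 FPKM for HYA and 4.97 to 6.31 FPKM for LA, with 1 of 8 genes tested (Entpd2, higher in control) and Upk1b below 3 fragments. Sinusoidal endothelial markers summed to 49.5 to 61.3 FPKM in ND-fed and 66.1 to 73.7 in the high-fat groups, with 2 of 5 higher in control against ND. Hepatocyte markers summed to 34522 to 36008 FPKM on the normal diet, 22787 to 25897 FPKM for control, 28702 to 29727 FPKM for HYA and 25078 to 25825 FPKM for LA. They were highest in ND-fed mice, and 5 of 5 were lower in control against ND. Marker calls were not repeated with columns rescaled to a common total, which moved the median of all genes from -0.04 to 0.15 in that comparison. Bile duct markers summed to 3.19 to 4.25 FPKM on the normal diet, 3.72 to 6.30 FPKM for control, 2.30 to 3.49 FPKM for HYA and 3.94 to 6.53 FPKM for LA, and Epcam, 1 of the 2 tested, was higher in control against ND and lower in HYA against control. Large vessel endothelium had 1 of 2 tested genes higher in control, macrophages 1 of 4, and adipocyte markers summed to at most 0.422 FPKM in any liver. In whole liver, fewer cells of a type and less RNA per cell cannot be told apart, and the part of these markers in the collagen results was not tested.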

How the data were processed

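Liver RNA of 12 mice was analysed, 3 in each of 4 diet groups assigned from the sample labels. The authors deposited FPKM values for each gene in every mouse; the submitters' processing notes name fastp, HISAT2 2.0.5, featureCounts 1.5.0-p3 and GRCm38. The annotation release, strand setting and handling of multi-mapping reads are not given in the sources used here, and the methods name TPM although the columns sum to different totals. Gene coordinates and lengths were deposited in columns of their own, and all 44 collagen genes have identical coordinates in GENCODE M21. FPKM times gene length came in whole steps within each column (tolerance 0.01), and 1 step was taken as 1 fragment. The library total that the step implies was also used as the library size in voom, so voom shares the scaling of the deposited FPKM. Intervals and limits from fragments cover counting error only.

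All 12 mice were fitted together with limma 3.58.1 in R 4.3.3 (empirical Bayes with trend, two-sided) on log2(FPKM + 1) for genes averaging 1 FPKM or more, with Benjamini-Hochberg adjustment over all tested genes and a threshold of 0.05. Marker, processing and receptor lists were read out of the same fit. Members follow the naming rule alone, but that rule and the lists were chosen with earlier results of these data known. Every collagen gene is named. Values per mouse were given for tested genes past the threshold in control against ND or HYA against control, and statistics for the 2 lowest p-values per chain type in both comparisons. Of the lists, the 5 lowest p-values in control against ND and the 3 lowest in HYA against control were named. Col5a1, Col5a2, Col5a3, Col27a1, Serpinh1, Mia3, Col25a1 and the genes called by voom alone were added after their values were seen. Alternatives were another scaling, pseudocount, filter, block, set of groups and tool, and leaving out each mouse; another gene length was added after seeing the data. The tests were tried on simulated data. Promoter sequences are RefSeq's on GRCm38.p6; protein sequences were not used here.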

Additional observations from a re-analysis of the deposited data

How the results depend on the processing

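With 3 mice a group and adjusted p-values near 0.05, the HYA calls are the least certain. In control against ND the count of 15 collagen genes stayed within 1.5 times under each alternative, apart from 8 with the added fold limit. In HYA against control the count of 4 became 8 with a common FPKM total, 8 with the replicate block, 7 with voom on fragments, 0 without a filter, 0 with only these groups and 1 with the fold limit, and 0 to 10 when 1 mouse was left out. In HYA against LA, 0 became 3 with a common total, 5 with the replicate block and 4 with voom. With a common total 161 of all 11083 genes were lower and 35 higher, and the share of all genes with the block was not counted. The cause of these shifts in the counts was not tested. The fold limit gave 3 in HYA against ND and 8 in LA against ND. Mice with the same number did not pair: of 18 pairs 3 had correlated deviations above 0.1 (range -0.40 to 0.29), and 2 of 12 mice correlated best with their own number, so the block of replicate numbers is shown here only.

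The 11 processing genes called in control against ND became 19 with a filter of 10 fragments and 18 with voom, which test more genes, and 1 with the fold limit; in HYA against control 1 passed with a common total, and 0 to 1 when a mouse was left out. Receptor calls in control against ND were 2 of 2 with a common total, 4 of 10 without a filter, 4 of 7 with the fragment filter and 4 of 7 with voom, all of them higher. The fibrillar share in fragments was 14.2% in ND, 24.4% in control, 17.3% in HYA and 23.1% in LA, and per longest coding transcript 23.9% in control, 16.5% in HYA and 22.6% in LA. The multiplexin share in fragments was 74.3% in ND, 63.3% in HYA and 52.9% in LA.

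Genes near 0 changed sign. The log2 fold change of Col13a1 in control against ND became 0.0082 with median-ratio scaling and 0.12 with a common total, and was -0.10 to 0.074 when 1 mouse was left out. In HYA against control it became -0.0016 with median-ratio scaling and -0.063 with a common total, and was -0.018 to 0.059 when 1 mouse was left out. Leaving out 1 mouse gave -0.33 to 0.035 for Col27a1 and -0.0037 to 0.33 for Col5a3 in HYA against control. In HYA against LA, Col27a1 became -0.023 with a common total, and leaving out 1 mouse gave -0.12 to 0.23 for Col27a1 and -0.20 to 0.051 for Col5a3.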
